A study of Homo sapiens with 26 samples.

Results

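The interferon-stimulated genes described here were 44 genes chosen by symbol: antiviral effectors, IFITM and guanylate-binding proteins, regulators of the IRF and STAT families, sensors of viral nucleic acid and other genes known to be induced by interferon. Of these, 43 had a probe set named for them, out of 17687 named genes, and STAT2 was not analysed here. Their RNA was measured on 26 single-colour arrays of 3 human lung cancer lines, H1975 (labelled lung adenocarcinoma), A549 and H1299 (both labelled lung carcinoma). After a night in culture the cells received 12.8 µM Omomyc, or PBS, its vehicle, which served as the control. Omomyc is a mini-protein derived from the DNA-binding and dimerisation domain of MYC, which acts as a dominant-negative inhibitor of MYC. There were 4 PBS and 5 Omomyc arrays of H1975, 4 and 3 of A549, and 5 and 5 of H1299. All groups shared the same serum-containing medium, the labels name no added interferon, and the sources used here do not give the length of treatment. Each line is a single model, so line and everything else that differs between lines cannot be told apart.

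Interferons are secreted proteins that bind receptors on the cell surface and, through JAK kinases, switch on STAT and IRF transcription factors. The type I pathway assembles a complex that contains IRF9 and binds the interferon-stimulated response element (ISRE), while type II interferon acts largely through the gamma-activated sequence (GAS). The genes that follow restrict viruses at entry, translation, replication and budding, and several are expressed in tumour cells without added interferon.

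The ISRE core was common in the promoters of these genes. The 6 promoters shown belong to genes that rose with Omomyc in 1 or 2 of the lines, and each holds a match. Among RefSeq promoters (GRCh38.p14), 45 entries belonged to 34 of the 44 listed genes. The ISRE core, GAAA followed by 2 bases of any kind and a further GAAA, was sought on both strands in the 250 bases before each gene start with overlapping matches allowed, and found in 25 of the 45 entries, against 3.02% of all 35116 promoters in the table. The GAS letters TTCNNNGAA, which read the same on both strands, were found in 13 of the 45 entries, against 6.57% of all promoters. Each sequence below is the 250 bases before the start, 5′ to 3′ on the plus strand, which is the strand of the gene, and capitals mark every ISRE match, which begins and ends with TTTC where it lies on the other strand. The window of HERC5 lies at chr4:88456869-88457118, IFIT3 at chr10:89332279-89332528, ISG15 at chr1:1013247-1013496, RSAD2 at chr2:6877527-6877776, IFITM1 at chr11:313790-314039 and IFI44L at chr1:78620198-78620447.
HERC5: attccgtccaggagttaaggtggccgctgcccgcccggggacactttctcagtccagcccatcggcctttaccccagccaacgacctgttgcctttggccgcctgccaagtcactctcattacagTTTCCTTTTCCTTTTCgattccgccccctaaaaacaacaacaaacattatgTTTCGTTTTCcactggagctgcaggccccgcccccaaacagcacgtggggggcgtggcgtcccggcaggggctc
IFIT3: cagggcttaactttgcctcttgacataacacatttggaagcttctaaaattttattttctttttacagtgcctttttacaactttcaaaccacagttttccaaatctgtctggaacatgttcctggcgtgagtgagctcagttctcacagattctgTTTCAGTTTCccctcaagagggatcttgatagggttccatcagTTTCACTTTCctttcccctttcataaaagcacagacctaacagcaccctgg
ISG15: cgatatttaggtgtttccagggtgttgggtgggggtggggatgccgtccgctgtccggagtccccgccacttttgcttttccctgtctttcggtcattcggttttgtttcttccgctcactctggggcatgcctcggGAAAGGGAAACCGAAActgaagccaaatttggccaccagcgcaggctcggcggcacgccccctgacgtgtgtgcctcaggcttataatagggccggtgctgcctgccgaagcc
RSAD2: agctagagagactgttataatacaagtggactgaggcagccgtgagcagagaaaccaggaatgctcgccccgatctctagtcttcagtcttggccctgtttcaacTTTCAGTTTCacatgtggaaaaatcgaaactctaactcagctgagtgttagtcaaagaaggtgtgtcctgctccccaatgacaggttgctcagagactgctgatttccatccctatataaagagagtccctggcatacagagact
IFITM1: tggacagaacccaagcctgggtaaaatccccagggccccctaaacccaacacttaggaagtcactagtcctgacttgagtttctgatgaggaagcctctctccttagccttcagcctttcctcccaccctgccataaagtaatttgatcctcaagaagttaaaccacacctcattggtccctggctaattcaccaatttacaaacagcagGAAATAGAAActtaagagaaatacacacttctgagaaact
IFI44L: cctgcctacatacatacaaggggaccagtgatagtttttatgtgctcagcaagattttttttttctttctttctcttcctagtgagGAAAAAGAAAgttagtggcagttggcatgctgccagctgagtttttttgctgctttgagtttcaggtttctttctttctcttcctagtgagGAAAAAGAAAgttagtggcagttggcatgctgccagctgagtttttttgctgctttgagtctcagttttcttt

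HERC5 held 3 matches, IFIT3, ISG15 and IFI44L held 2 each and RSAD2 and IFITM1 held 1 each. In HERC5 and ISG15 a pair of matches overlapped. A further RSAD2 entry, at chr2:6865635-6865884, held 0. Of the 19 measured genes with a promoter entry that passed the test in no line, 12 held an ISRE match, compared with 6 of 7 that rose in H1975 and 5 of 7 that rose in H1299. SP110, which rose in both of those lines, and UBE2L6, which rose in H1299, held none in this window. Of the genes that fell in H1975, IFIT5 held 2 matches, and SAMD9L and XAF1 held none.

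Values are the deposited log2 values, on which a step of 1 is a doubling, and means are given ± SD over arrays. The 23 background probe sets had means from 2.34 to 6.69, so a gene below 6.69 is called below background here and its level there can be read only as a bound. By that measure 37 of the 43 genes were above background in at least 1 of the 6 groups and 6 in none. The arrays were divided into 3 clusters of 9, 10 and 7 arrays by their overall distribution of values. These clusters are called runs here, their number was set and not found, and no label names a batch. The runs held both treatments of every line with the exception of A549, whose Omomyc arrays were all in runs 1 and 2. The genes moved with the runs, and so did whole arrays. The median deviation of the genes from the group mean was -0.20 to 0.12 on arrays of run 1. It was 0.052 to 0.33 in run 2 and -0.39 to -0.16 in run 3. The array mean over all features was 7.08 to 7.12 in run 1, 7.3 to 7.36 in run 2 and 6.94 to 6.99 in run 3. Run-adjusted and within-run values are therefore given below. AKR1B10 and AKR1C1, abundant in A549, had PBS means of 17.10 and 16.73 there, and CDKN2A, which A549 lacks, had 3.33 there against 11.73 in H1975 and 15.22 in H1299, which fits the line labels. Epithelial keratins KRT8 and KRT18 were above background in all groups, but CDH1 was below it in H1975 and H1299, and EPCAM and KRT19 were below it in H1299. Of 7 leukocyte markers measured, only CD68 was above background in any group, and it was so in all 6 groups. In A549 CD68 had means of 9.09 ± 0.24 with PBS and 9.24 ± 0.57 with Omomyc. In H1299 it had 13.34 ± 0.29 and 13.96 ± 0.17. Its mean was 12.86 ± 0.28 with PBS and 14.35 ± 0.35 with Omomyc in H1975 (1.49 ± 0.23 SE higher, limma adjusted p = 2.99e-05), so it moved with the genes that rose there. The summed level of the 7 markers ran from 30.70 to 33.23 on PBS and 32.78 to 35.31 on Omomyc arrays of H1975, PTPRC, CD3E and the other 4 lay below background, and their part in the results was not tested. Of 8 fibroblast and endothelial markers, COL1A1, COL1A2 and PDGFRB were above background, in H1975 alone, with PBS means of 9.44 ± 1.14, 8.05 ± 0.80 and 6.87 ± 0.60 and Omomyc means of 8.30 ± 0.65, 7.32 ± 0.49 and 6.46 ± 0.37. None of the 3 passed the test for Omomyc there (adjusted p = 0.293, 0.456 and 0.485), they go with the line that is highest for most interferon-stimulated genes, and their part was not tested.

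In PBS-treated cells, H1975 carried the highest levels of most interferon-stimulated genes. Its mean was the highest of the 3 lines for 32 of 43 genes (74.4%), against 35.1% of all genes, and A549 and H1299 were highest for 7 and 4. Between PBS groups 33 genes were higher and 4 lower in H1975 than in A549 (86% of the genes, against 38.3% of all genes, 20.3% higher and 18% lower), with a median difference of 2.70. Against H1299, 29 were higher and 2 lower in H1975 (72.1%, against 42% of all genes, 21.2% higher and 20.8% lower), with a median difference of 2.04. A549 and H1299 differed in both directions, with 10 genes higher and 14 lower in A549 (55.8%, against 41.5% of all genes, 19% higher and 22.5% lower) and a median difference of -0.18. These calls are limma adjusted p under 0.05 over all 17687 genes. Above background in PBS were 31 of the 43 genes in H1975, 18 in A549 and 21 in H1299. The array measures a culture as a whole, so fewer cells that express a gene and less RNA per cell cannot be told apart.

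**Figure D1:**
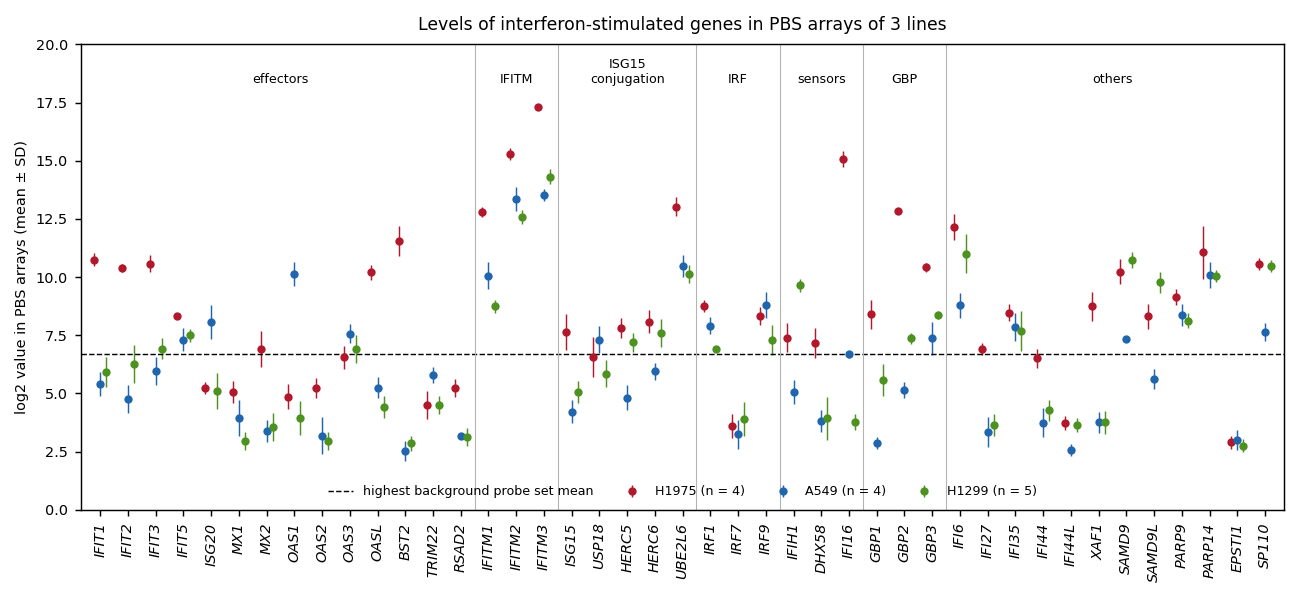
Levels of the 43 genes in PBS arrays (log2 value, mean ± SD, n = 4, 4 and 5 for H1975, A549 and H1299), grouped by role; the dashed line is the highest background probe set mean, 6.69. H1975 is the highest line for 32 of the 43 genes, while OAS1 is high in A549 and IFIH1 in H1299.

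The antiviral effectors showed wide contrasts between lines. BST2, or tetherin, which holds budding virus at the cell surface, read 12.33, 11.67, 10.79 and 11.40 in H1975. It read 3.01, 2.79, 2.12 and 2.24 in A549, and 2.84, 3.41, 2.70, 2.61 and 2.73 in H1299. H1975 was thus the only line with BST2 above background, by 9.005 ± 0.41 (SE, limma adjusted p = 6.06e-17) over A549 and 8.69 ± 0.39 (3.65e-17) over H1299, both of them bounded by background in the lower line. IFIT1, which binds viral RNA lacking normal cap methylation, had means of 10.74 ± 0.28, 5.42 ± 0.51 and 5.92 ± 0.63 in H1975, A549 and H1299. IFIT2 and IFIT3, its partners in that complex, followed the same order with 10.38 ± 0.17, 4.77 ± 0.60 and 6.27 ± 0.81 for IFIT2 and 10.57 ± 0.37, 5.95 ± 0.60 and 6.92 ± 0.46 for IFIT3. OASL, an OAS relative that promotes RNA sensing by RIG-I, had 10.21 ± 0.33, 5.25 ± 0.44 and 4.42 ± 0.49. For IFIT1 and OASL the A549 and H1299 groups overlapped and did not pass the test against each other (adjusted p = 0.208 and 0.0794). IFIT5 was above background in every line, with means of 8.33 ± 0.11, 7.32 ± 0.51 and 7.49 ± 0.27.

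OAS1 ran against this order. The gene encodes an enzyme that makes 2′-5′ oligoadenylates on sensing double-stranded RNA, and it read 10.09, 10.03, 10.79 and 9.55 in A549 PBS arrays. The H1975 arrays read 5.33, 5.24, 4.68 and 4.18, and the H1299 arrays 5.05, 4.39, 3.41, 3.46 and 3.48. A549 exceeded H1975 by 5.26 ± 0.35 (adjusted p = 2.4e-13) and H1299 by 6.16 ± 0.33 (1.56e-15), and only A549 was above background. Its neighbours on chromosome 12 differed less: OAS3 had means of 6.56 ± 0.49, 7.56 ± 0.40 and 6.90 ± 0.59 in H1975, A549 and H1299, and OAS2 was below background in all 3. ISG20, an exonuclease, was also above background only in A549 (8.08 ± 0.74, against 5.24 ± 0.26 in H1975 and 5.11 ± 0.77 in H1299). The dynamin-like GTPases MX1 and MX2 were below background except MX2 in H1975 (6.92 ± 0.78, with 2 of 4 arrays under 6.69). TRIM22 and RSAD2 were below background in the PBS group of every line.

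Among the membrane and GTPase families, H1975 was again highest. The IFITM proteins block fusion of viruses with endosomal and plasma membranes, and all 3 were above background in every line. IFITM1 had PBS means of 12.79 ± 0.21 in H1975, 10.06 ± 0.57 in A549 and 8.75 ± 0.29 in H1299, and the 3 groups did not overlap. IFITM2 had 15.29 ± 0.28, 13.35 ± 0.50 and 12.58 ± 0.30, and IFITM3 had 17.30 ± 0.13, 13.52 ± 0.24 and 14.31 ± 0.32. The sequences of these paralogs are close enough that their probe sets may share signal, so their separation is uncertain. The guanylate-binding proteins, large GTPases that attack the membranes of intracellular pathogens, took the order H1975, H1299, A549 for all 3 members. GBP2 read 12.96, 12.84, 12.79 and 12.76 in H1975, 7.44, 7.46, 7.65, 7.12 and 7.16 in H1299, and 5.55, 5.24, 5.08 and 4.70 in A549. GBP1 had means of 8.40 ± 0.63, 5.59 ± 0.69 and 2.85 ± 0.26 in that order, and GBP3 had 10.42 ± 0.20, 8.38 ± 0.17 and 7.37 ± 0.71; the H1299 and A549 groups overlapped for neither GBP1 nor GBP2.

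The nucleic acid sensors split by line. IFI16, a nuclear DNA sensor, read 14.996, 15.24, 15.41 and 14.65 in H1975, 6.85, 6.62, 6.75 and 6.48 in A549, and 3.37, 4.22, 4.02, 3.64 and 3.68 in H1299. The gap of 11.29 ± 0.31 between H1975 and H1299 (adjusted p = 5.88e-22) was the largest PBS difference among the 43 genes and is bounded by background in H1299. IFIH1, or MDA5, which senses long double-stranded RNA, was instead highest in H1299, with 9.54, 9.76, 10.00, 9.28 and 9.63. Its H1975 arrays read 6.84, 8.08, 7.77 and 6.89, and its A549 arrays 5.61, 5.28, 4.96 and 4.38, with no overlap between any of the lines. DHX58, or LGP2, an MDA5 cofactor, was above background only in H1975 (7.17 ± 0.66).

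The regulators measured were 3 IRF genes. IRF1, a factor induced by interferon-gamma, had PBS means of 8.76 ± 0.26, 7.92 ± 0.37 and 6.92 ± 0.13 in H1975, A549 and H1299, and passed the test for each pair of lines. IRF9, the DNA-binding part of the ISRE complex, had 8.34 ± 0.38, 8.80 ± 0.55 and 7.30 ± 0.64, with overlapping groups throughout. H1975 and A549 did not pass the test for IRF9 (adjusted p = 0.348), and both exceeded H1299 (adjusted p = 0.0124 and 0.000482). IRF7, the amplifier of interferon-alpha transcription, was below background in all lines. Among the ISG15 conjugation genes, ISG15 itself, a ubiquitin-like modifier, was above background only in H1975 (7.63 ± 0.77, against 4.22 ± 0.49 in A549 and 5.05 ± 0.47 in H1299). Its conjugating enzyme UBE2L6 was above background in all lines (13.03 ± 0.41, 10.46 ± 0.47 and 10.12 ± 0.39), and its ligase HERC5 in H1975 and H1299 (7.80 ± 0.42 and 7.20 ± 0.40) but not in A549 (4.82 ± 0.54). USP18, the protease that removes ISG15, was above background only in A549 (7.31 ± 0.58), where it exceeded H1299 (adjusted p = 0.00475) but not H1975 by the test (0.185).

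A smaller group was high in both H1975 and H1299 and low in A549. SP110, a nuclear body protein, had PBS means of 10.56 ± 0.25 and 10.50 ± 0.26 in H1975 and H1299 and 7.64 ± 0.38 in A549. SAMD9 and SAMD9L, paired restriction factors on chromosome 7 that act on poxviruses, had 10.23 ± 0.54 and 8.32 ± 0.53 in H1975, 10.72 ± 0.34 and 9.77 ± 0.46 in H1299, and 7.36 ± 0.09 and 5.62 ± 0.42 in A549. H1975 and H1299 did not pass the test against each other for SP110 (0.06 ± 0.19, adjusted p = 0.852) or SAMD9 (-0.49 ± 0.24, 0.113), while SAMD9L was higher in H1299 (adjusted p = 0.00053). XAF1, which opposes the apoptosis inhibitor XIAP, was above background only in H1975 (8.74 ± 0.62, against 3.75 ± 0.46 and 3.76 ± 0.49).

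Omomyc raised 9 of the 43 genes and lowered 3 in H1975, raised 9 and lowered 0 in H1299, and moved none past the test in A549. The share called was 27.9% in H1975, beside 11.8% of all genes, and 20.9% in H1299, beside 8.87% of all genes. By direction, all genes gave 5.57% higher and 6.28% lower in H1975, and 4.35% higher and 4.52% lower in H1299. The 3 of 43 lowered in H1975 lie near the share of all genes lowered there. That count is therefore not read as a result about these genes. In A549 the count of 0 stood beside 1.19% of all genes, 0.916% higher and 0.277% lower. The median change over the 43 genes was 0.087 in H1975, 0.13 in A549 and 0.28 in H1299, against 0.0038, 0.042 and 0.0018 over all genes. Without 1 array the median in H1975 was as low as 0.0108 (without PBS replicate 4) and over 1.5 times higher without PBS replicates 2 or 3 or Omomyc replicate 1 (0.135, 0.167 and 0.13). In A549 it was 0.0624 and 0.047 without PBS replicate 4 and Omomyc replicate 3, and 0.244, 0.206 and 0.203 without PBS replicates 1 or 3 and Omomyc replicate 2. Estimates were above 0 for 25, 26 and 30 of the 43 genes, against 8936, 9771 and 8882 of all 17687 genes. With run as a block the counts were 18 in H1975 (11 higher, 7 lower), 1 in A549 (lower) and 12 in H1299 (11 higher, 1 lower), beside 19.2%, 2.84% and 15.9% of all genes. By direction, run-blocked calls over all genes were 9.37% higher and 9.85% lower in H1975, 1.71% and 1.13% in A549, and 7.73% and 8.17% in H1299. Within single runs the median over the genes was 0.018, 0.26 and 0.20 in runs 1, 2 and 3 of H1975, 0.021 and 0.11 in runs 1 and 2 of A549, and 0.29, 0.27 and 0.30 in H1299.

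**Figure D2:**
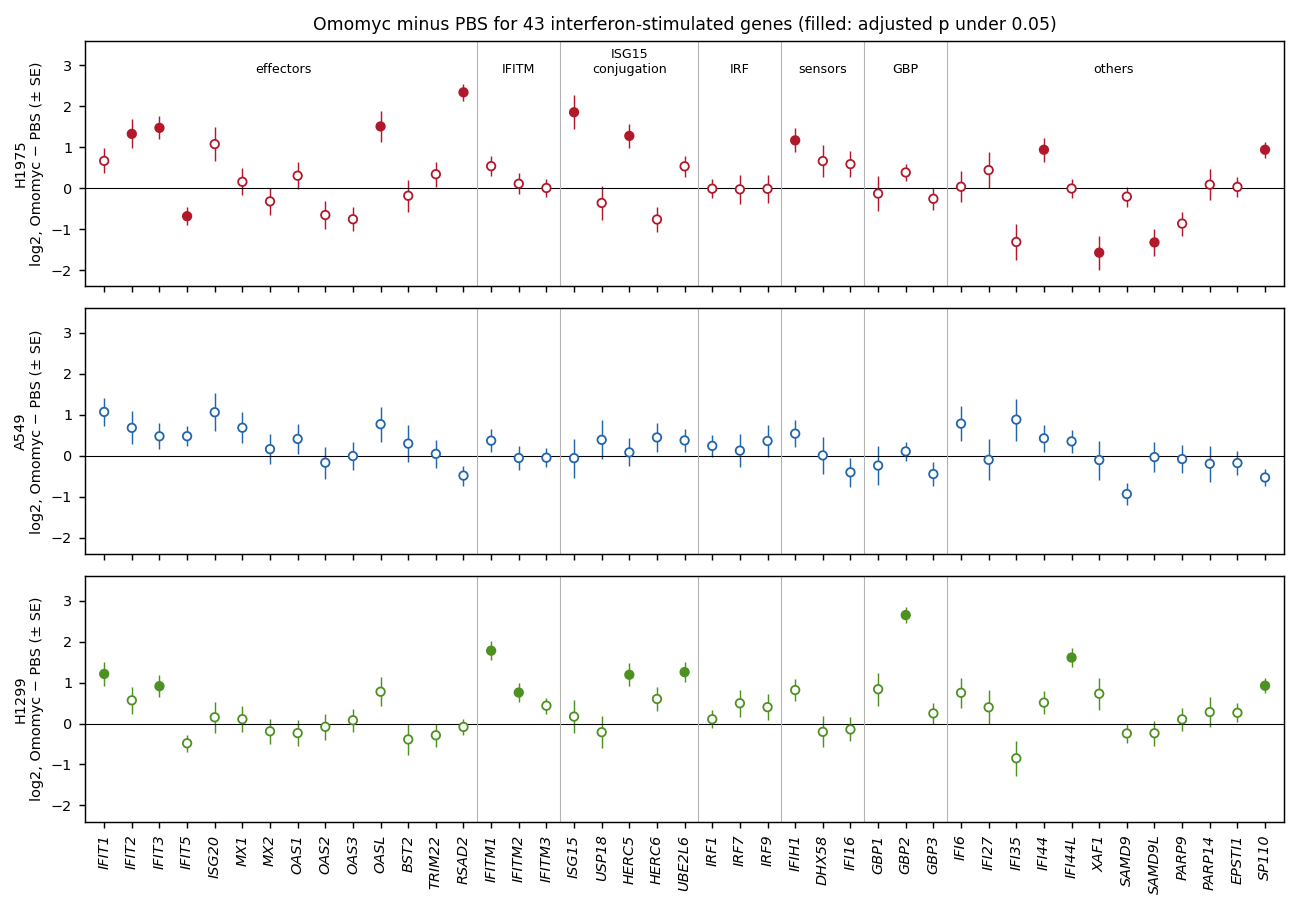
Omomyc minus PBS (log2, ± SE of the limma fit) for the 43 genes in H1975, A549 and H1299, grouped by role; filled points have an adjusted p under 0.05. H1975 has 9 filled points above 0 and 3 below, H1299 has 9 above, and A549 has none.

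In H1975 the effectors held the largest rise. RSAD2 encodes viperin, a radical SAM enzyme that makes a chain-terminating nucleotide, and it read 4.88, 5.36, 4.99 and 5.74 with PBS and 7.75, 7.23, 7.60, 8.003 and 7.34 with Omomyc. All 5 Omomyc arrays lay above background and all 4 PBS arrays below it, and the change was 2.34 ± 0.21 (SE, limma adjusted p = 8.88e-09), which is open to the background bound of the PBS group. OASL read 10.55, 10.43, 9.95 and 9.90 with PBS and 12.01, 11.58, 12.02, 11.65 and 11.32 with Omomyc, a change of 1.51 ± 0.38 (adjusted p = 0.00672) with no overlap. IFIT3 read 11.12, 10.33, 10.52 and 10.33 with PBS and 12.61, 12.34, 11.47, 12.38 and 11.43 with Omomyc (1.47 ± 0.28, adjusted p = 0.000533). IFIT2 read 10.62, 10.40, 10.26 and 10.24 with PBS and 11.88, 11.96, 11.36, 12.14 and 11.19 with Omomyc (1.33 ± 0.36, adjusted p = 0.0124). Neither IFIT2 nor IFIT3 had overlapping groups, and H1975 was their highest line already in PBS. Of their neighbours on chromosome 10, IFIT1 did not pass the test (0.67 ± 0.31, adjusted p = 0.19, groups overlapping), with changes of 0.53, 1.07 and 0.09 within runs 1, 2 and 3, and IFIT5 fell by 0.68 ± 0.22 (adjusted p = 0.038). The IFIT5 call was weak, since it was lost without any 1 of 6 of the 9 arrays (adjusted p 0.0749 to 0.0924) and after quantile normalization of all arrays (0.176) or centring on array medians (0.213). The OAS enzymes and MX genes moved past the test in neither direction, with 0.30 ± 0.33 for OAS1, -0.66 ± 0.34 for OAS2, -0.76 ± 0.29 for OAS3, 0.16 ± 0.33 for MX1 and -0.32 ± 0.32 for MX2. With run as a block, OAS3 was lower (-0.74 ± 0.24, adjusted p = 0.0261) and ISG20 higher (0.95 ± 0.27, adjusted p = 0.0137), but both groups of both genes were below background, which leaves the sizes uncertain.

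The ISG15 conjugation genes of H1975 changed unevenly. ISG15 read 8.28, 8.06, 6.54 and 7.64 with PBS and 9.14, 8.42, 10.70, 9.80 and 9.38 with Omomyc, a change of 1.85 ± 0.42 (adjusted p = 0.00299). The groups did not overlap, but the lowest Omomyc array exceeded the highest PBS array only narrowly, and the change within runs 1, 2 and 3 was 0.49, 2.95 and 1.74. HERC5 read 7.93, 8.24, 7.81 and 7.23 with PBS and 9.19, 8.86, 9.62, 9.47 and 8.27 with Omomyc (1.28 ± 0.30, adjusted p = 0.00405). UBE2L6 (0.53 ± 0.26), USP18 (-0.36 ± 0.42) and HERC6, a relative of HERC5 (-0.76 ± 0.31), did not pass the test, and HERC6 was lower with run as a block (-0.68 ± 0.23, adjusted p = 0.0397). HERC5 and HERC6, which lie side by side on chromosome 4, thus had estimates of opposite sign.

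Further rises in H1975 were in a sensor and in nuclear and cytoplasmic proteins. SP110 read 10.58, 10.62, 10.81 and 10.21 with PBS and 11.40, 11.47, 11.51, 11.72 and 11.37 with Omomyc, a change of 0.94 ± 0.19 (adjusted p = 0.00104) with no overlap. IFIH1 rose by 1.17 ± 0.29 (adjusted p = 0.00739), from 7.39 ± 0.62 to 8.56 ± 0.39, also with no overlap. IFI44, a cytoplasmic protein of limited known function, rose by 0.94 ± 0.29 (adjusted p = 0.0337), from 6.51 ± 0.42, below background, to 7.45 ± 0.43. The IFI44 call was lost without PBS replicate 4 (adjusted p = 0.155) or without Omomyc replicates 1, 2 or 3 (0.0968, 0.0573 and 0.0751). IFI44 was named after its values were seen. With run and replicate number blocked together, although the numbers do not pair arrays in H1975, the calls of SP110 (adjusted p = 0.135), IFIT2 (0.117), IFIH1 (0.0787), IFI44 (0.114), SAMD9L (0.0991) and IFIT5 (0.314) were lost.

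Alongside these rises, 2 further genes fell in H1975. SAMD9L read 7.69, 8.88, 8.63 and 8.09 with PBS and 7.01, 7.19, 7.27, 7.40 and 6.11 with Omomyc, a change of -1.32 ± 0.33 (adjusted p = 0.00629) with no overlap, while its neighbour SAMD9 changed by -0.21 ± 0.24 (0.731). XAF1 read 8.71, 8.69, 9.54 and 8.04 with PBS and 6.53, 7.002, 8.43, 7.999 and 5.88 with Omomyc (-1.57 ± 0.42, adjusted p = 0.0114). The XAF1 groups overlapped, since 1 Omomyc array exceeded 1 PBS array, and without PBS replicate 3 the change was -1.31 and the adjusted p 0.0616. Within runs 1, 2 and 3 XAF1 changed by -1.94, -0.90 and -2.15. PARP9, which works with DTX3L in interferon signalling, and IFI35 were near the threshold (-0.86 ± 0.29, adjusted p = 0.0527, and -1.31 ± 0.45, 0.0555) and passed it with run as a block (-0.81 ± 0.19, 0.00211, and -1.23 ± 0.29, 0.00286). The 3 IFITM genes, the 3 GBP genes and the 3 IRF genes did not pass the test in H1975, with changes of 0.00 to 0.54, -0.26 to 0.38 and -0.03 to -0.01.

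**Figure D3:**
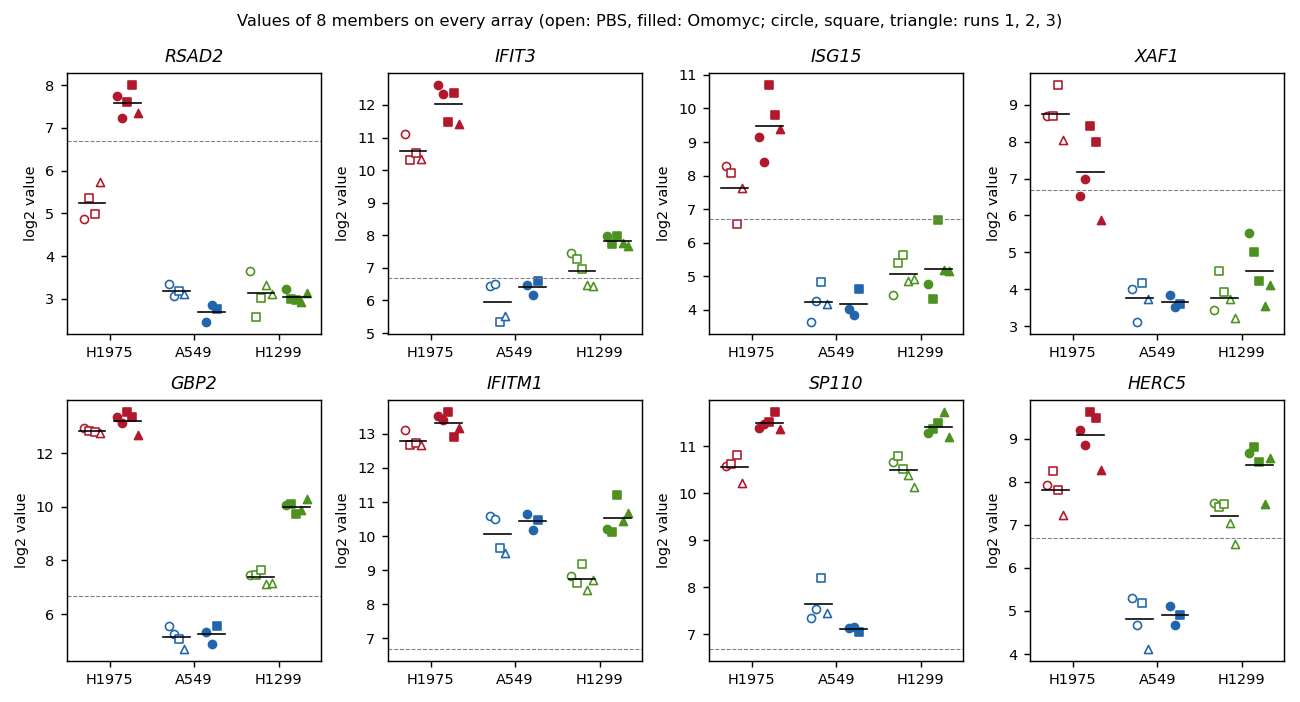
Value of 8 genes on every array (log2; open, PBS; filled, Omomyc; circle, square and triangle, runs 1, 2 and 3; bar, group mean), with the dashed line at the highest background probe set mean, 6.69. RSAD2 and ISG15 separate by treatment in H1975, GBP2 and IFITM1 in H1299, and SP110, IFIT3 and HERC5 are higher with Omomyc in both of those lines, where 1 Omomyc array of HERC5 in H1299 lies among the PBS arrays.

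In H1299 the largest rise was in a guanylate-binding protein. GBP2 read 7.44, 7.46, 7.65, 7.12 and 7.16 with PBS and 10.06, 10.11, 9.74, 9.87 and 10.29 with Omomyc, a change of 2.65 ± 0.19 (adjusted p = 3.18e-10). The arrays within each treatment spanned far less than the gap between treatments, and the change was 2.62, 2.37 and 2.94 in runs 1, 2 and 3. The neighbouring GBP1 and GBP3 on chromosome 1 had 0.84 ± 0.40 (adjusted p = 0.247) and 0.25 ± 0.25 (0.713), and both GBP1 groups were below background. GBP1 passed the test with run as a block (0.84 ± 0.24, 0.0166) but not with replicate number as a block (0.84 ± 0.28, 0.0581). IFITM1 read 8.81, 8.61, 9.19, 8.42 and 8.71 with PBS and 10.21, 10.11, 11.20, 10.43 and 10.68 with Omomyc (1.78 ± 0.23, adjusted p = 7.35e-06), again with no overlap. IFITM2 rose by 0.76 ± 0.24 (adjusted p = 0.0451), from 12.76, 12.78, 12.77, 12.09 and 12.50 to 13.33, 13.08, 13.63, 13.42 and 13.23. Its groups did not overlap, but the call was lost without any 1 array other than Omomyc replicate 2, with adjusted p from 0.052 to 0.137. IFITM3 had 0.44 ± 0.20 (adjusted p = 0.211).

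Of the 14 effectors, IFIT1 and IFIT3 rose in H1299. IFIT1 read 5.02, 6.05, 6.77, 6.06 and 5.72 with PBS and 7.49, 7.29, 6.43, 6.74 and 7.71 with Omomyc, a change of 1.21 ± 0.29 (adjusted p = 0.0059). Its groups overlapped, the PBS mean was below background, and the change within runs 1, 2 and 3 was 2.47, 0.46 and 1.33. IFIT3 read 7.45, 7.27, 6.97, 6.47 and 6.43 with PBS and 7.98, 7.73, 7.97, 7.77 and 7.69 with Omomyc (0.91 ± 0.26, adjusted p = 0.0267). No IFIT3 array overlapped, yet the call was lost without PBS replicate 4 or 5 (adjusted p = 0.0832 and 0.0891) or Omomyc replicate 1 or 3 (0.0635 and 0.059). RSAD2 stayed below background under both treatments (-0.08 ± 0.20), as did OAS1, OAS2, MX1, MX2 and BST2, and none of them passed the test. Among conjugation genes, UBE2L6 read 10.48, 10.42, 10.25, 9.92 and 9.54 with PBS and 11.08, 10.87, 11.79, 11.45 and 11.69 with Omomyc (1.25 ± 0.24, adjusted p = 0.000804), with no overlap. HERC5 read 7.50, 7.41, 7.49, 7.05 and 6.56 with PBS and 8.67, 8.80, 8.45, 7.49 and 8.54 with Omomyc (1.19 ± 0.28, adjusted p = 0.00565), where Omomyc replicate 4 fell among the PBS arrays. ISG15 itself had 0.17 ± 0.40 (adjusted p = 0.908) and was below background in both groups.

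The remaining rises in H1299 were SP110 and IFI44L. SP110 read 10.67, 10.79, 10.51, 10.39 and 10.13 with PBS and 11.28, 11.38, 11.51, 11.73 and 11.21 with Omomyc (0.92 ± 0.18, adjusted p = 0.000935), with no overlap. IFI44L, a paralog of IFI44, read 3.38, 4.15, 3.72, 3.50 and 3.45 with PBS and 5.29, 5.32, 5.72, 5.19 and 4.74 with Omomyc (1.61 ± 0.23, adjusted p = 2.52e-05). Those groups did not overlap, but all 10 arrays were below the highest background probe set mean, so the size of this change is uncertain. IFIH1, the sensor highest in this line, went from 9.64 ± 0.27 to 10.46 ± 0.36 with no overlap (0.82 ± 0.28, adjusted p = 0.0655). It passed the test with replicate number as a block (0.82 ± 0.23, adjusted p = 0.0215) and with run as a block (0.82 ± 0.23, 0.013). IFI35 was lower only with run as a block (-0.85 ± 0.28, adjusted p = 0.0329). The 3 IRF genes did not pass the test, with changes of 0.10 to 0.49.

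A549, with 3 Omomyc arrays, gave no call under the limma test at an adjusted p of 0.05, with changes between -0.93 and 1.07 and a lowest adjusted p of 0.115. At an unadjusted p under 0.05, 2 genes were higher and 2 lower. The 3 with the smallest p had groups that did not overlap, as did RSAD2, which was below background (-0.48 ± 0.24, adjusted p = 0.591). The share of all genes without overlap was not counted, so this is not read as a response. SAMD9 read 7.30, 7.32, 7.49 and 7.32 with PBS and 6.64, 6.25 and 6.38 with Omomyc (-0.93 ± 0.27, adjusted p = 0.115), and with run as a block it was lower (-1.01 ± 0.25, adjusted p = 0.023). IFIT1 read 5.32, 5.35, 6.12 and 4.88 with PBS and 6.38, 6.69 and 6.39 with Omomyc (1.07 ± 0.35, adjusted p = 0.181), close to or under background on all of them. SP110 read 7.35, 7.55, 8.19 and 7.46 with PBS and 7.13, 7.15 and 7.05 with Omomyc (-0.53 ± 0.22, adjusted p = 0.397). SP110 thus lay on the other side of 0 from its change in H1975 and H1299. OAS1, whose PBS level was higher in A549 than in the other lines, went from 10.12 ± 0.51 to 10.53 ± 0.54 (0.41 ± 0.37, adjusted p = 0.89). The standard errors in A549 ran from 0.22 to 0.51, against 0.18 to 0.42 in H1299.

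**Figure D4:**
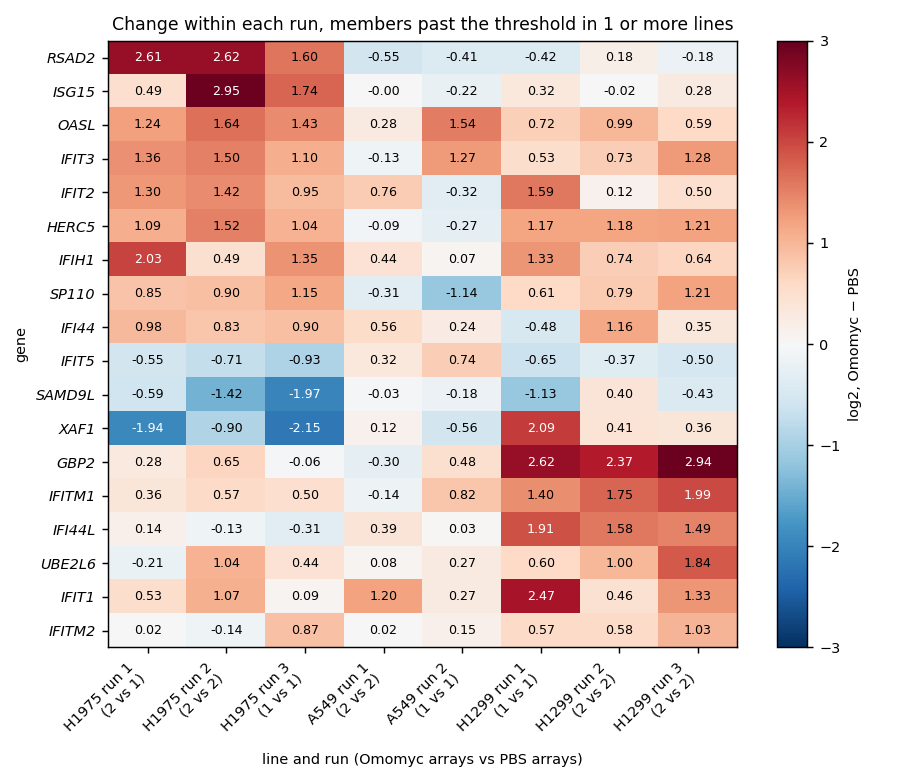
Omomyc minus PBS within each run (log2 difference of array means; number of Omomyc and PBS arrays under each column) for the 18 genes past the threshold in 1 or 2 lines. RSAD2 is higher in all 3 runs of H1975 (2.61, 2.62 and 1.60) and GBP2 in all 3 runs of H1299 (2.62, 2.37 and 2.94), while ISG15 in H1975 ranges from 0.49 to 2.95.

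Both H1975 and H1299 raised 3 of the genes, IFIT3, HERC5 and SP110. They were 33.3% of the 9 that rose in H1975 and 33.3% of the 9 that rose in H1299, where over all genes 221 were shared (1.25% of the genes tested), 22.4% of 985 and 28.7% of 770. With so few genes these shares are near those over all genes, and the overlap is not read as a result about the set. A call in 1 line alone does not show that the lines differ, so the difference was tested itself. A moderated F test on the Omomyc response among the 3 lines passed for 7 of the 43 genes, where 8.18% of all genes passed. It passed for 14 with run as a block, which added ISG15, HERC5, HERC6, IFI35, SAMD9L, PARP9 and IFIT3. After quantile normalization of all arrays it passed for 12. The share of all genes that passed in those fits was not counted. A gain of these genes thus cannot be told from a gain over all genes. RSAD2 had the smallest adjusted p (3.64e-07): its change in H1299 was 2.42 ± 0.29 below that in H1975, and its change in A549 2.82 ± 0.32 below, sizes that are uncertain because RSAD2 was below background under both treatments in H1299 and A549. GBP2 followed (4.9e-07), with a change in H1299 that exceeded H1975 by 2.26 ± 0.28 and A549 by 2.54 ± 0.30, the latter uncertain because both A549 groups were below background. IFITM1 (F test adjusted p = 0.0143) and IFI44L (0.00401) also rose more in H1299 than in H1975, by 1.24 ± 0.34 and 1.62 ± 0.33, where IFI44L was below background in all 6 groups and its difference is of uncertain size. SP110 (0.00107) separated A549 from the other lines, by -1.47 ± 0.29 against H1975, while H1975 and H1299 differed by -0.01 ± 0.26. XAF1 (0.0275) differed between H1299 and H1975 by 2.30 ± 0.57, with both H1299 groups below background, and IFIT5 (0.0484) between A549 and H1975 by 1.16 ± 0.33. ISG15 did not pass (adjusted p = 0.0746), so its larger estimate in H1975 was not shown to differ between lines without adjusting for run (0.0152 with run as a block). With replicate number as a block in all 3 lines, HERC5 and HERC6 also passed (0.0222 and 0.0464), although the numbers showed no pairing beyond the runs.

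The rest of the pathway, 73 measured genes that are not among the 43, gave calls in both directions in H1975 and H1299. Of 10 interferon genes measured, 0 were above background in any group and 0 passed the test in any line, with IFNB1 at 2.53 ± 0.35 in PBS and 2.41 ± 0.28 with Omomyc in H1975 (limma; adjusted p = 0.821). Over the 73 genes Omomyc raised 5 and lowered 7 in H1975, raised 2 and lowered 0 in A549, and raised 5 and lowered 4 in H1299. Of all genes, 11.8%, 1.19% and 8.87% were called in these lines. By direction, all genes gave 5.57% higher and 6.28% lower in H1975, 0.916% and 0.277% in A549, and 4.35% and 4.52% in H1299. The counts of the 73 genes are therefore not read as a result about the pathway. IFNAR2, a chain of the type I receptor, fell by 0.93 ± 0.21 in H1975 (adjusted p = 0.00272) and rose by 0.82 ± 0.20 in H1299 (0.00577), a difference of 1.75 ± 0.29 (adjusted p = 0.000164). MAVS, the adaptor that relays MDA5 signals, fell by 1.34 ± 0.23 in H1975 (adjusted p = 0.000144), where IFIH1 rose. STING1, the adaptor of DNA sensing, rose by 1.22 ± 0.27 in H1299 (0.00373). PTPN2, a phosphatase that dampens JAK-STAT signalling, rose by 0.61 ± 0.21 in H1975 (0.0499), with overlapping groups. JAK1 and TYK2, kinases of the receptor, were above background in all groups.

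Further interferon-induced genes outside the 43 also went both ways in the same line. In H1975, DDX60 and ZC3HAV1, antiviral RNA-binding proteins, rose by 1.68 ± 0.42 (adjusted p = 0.00768) and 1.03 ± 0.20 (0.000538). TNFSF10, which encodes the death ligand TRAIL, fell there by 2.73 ± 0.30 (2.07e-07), and SAMHD1, a dNTP hydrolase that restricts retroviruses, fell by 1.77 ± 0.21 (1.04e-06). DTX3L, the partner of PARP9, fell by 0.91 ± 0.21 (0.00292). WARS1, a tRNA synthetase induced by interferon-gamma, rose in H1975 (0.86 ± 0.16, adjusted p = 0.000498) and A549 (1.47 ± 0.19, 1.84e-05) and fell in H1299 (-1.69 ± 0.15, 1.92e-08). TRIM14, a partner of MAVS in antiviral signalling, fell in H1299 by 1.89 ± 0.25 (9.48e-06). In H1975 its mean was also lower with Omomyc, 9.58 ± 0.45 against 10.91 ± 0.38 with PBS. The TRIM14 changes in H1299 and H1975 did not pass the limma test against each other (-0.56 ± 0.37, adjusted p = 0.521). SLFN11, a restriction factor that acts on translation, rose in A549 by 1.52 ± 0.36 (0.023). DDX60, ZC3HAV1 and DTX3L were named after their values were seen.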

How the data were processed

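Total RNA was labelled with biotin and read on 26 single-colour arrays. The deposited values are log2 values that the authors made with RMA in Partek, per the submitters' processing notes, which give no versions; the build and whether all arrays were normalized together are not given in the sources used here. No read depth exists for arrays, and the number of arrays limits the precision. Of 24351 features, 17709 had 1 gene symbol, 0 had several and 6642 had none; the symbols gave 17687 genes, and for 20 genes the probe set with the highest mean was used.

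Groups came from the sample labels. The labels call replicates biological but name no separate cultures, and p-values therefore cover only the spread between these arrays, which may be technical. limma 3.58.1 (R 4.3.3) fitted 6 group means to all 26 arrays with lmFit and eBayes, with 20 residual degrees of freedom. Omomyc was set against PBS within each line, and the PBS groups against each other, with p-values adjusted by Benjamini-Hochberg over all genes, and an F test on the 2 interaction contrasts. No pseudocount was added. The fit was tested on simulated data.

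Runs are clusters of arrays by the sorted values of each whole array (average linkage), cut at a set number of 3, and are known from no label. Same-numbered arrays deviated together in H1299 (correlations 0.259 to 0.389) and A549 (0.109 to 0.196) but not in H1975 (-0.196 to 0.331). With run removed the correlations were -0.148 to 0.0462 in H1299, -0.189 to 0.00828 in A549 and -0.256 to 0.0817 in H1975. The numbers thus showed no pairing of arrays beyond the runs. Fits with replicate number as a block are given only as alternatives. Of 45 pairs of arrays of a group, 0 were identical.

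The genes and lists were chosen with earlier results of these data known. Genes named were the 8 called with the largest change in each line and above the median level of 6.43 (the 3 smallest p where under 3 were called), the 10 with the widest PBS range, the 5 with the smallest F-test p, the highest and lowest PBS mean of each role in each line and, outside the set, up to 2 called genes of a pathway list in each line with the smallest p. Every other gene named (PARP9, IFI35, HERC6, OAS3 and ISG20 among them) was chosen after its values were seen. Alternatives were other normalizations, filters, moderation, blocks, single runs and leaving out arrays. Levels of different probe sets were ranked only to choose these names, and no result compares them.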

Additional observations from a re-analysis of the deposited data

Results flagged for a closer look

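Among 20 genes and the groups of 4 or 5 arrays, 100 gene and group pairs were checked for an array far from the rest of its group, and 7 had one, where chance gives about 1 in 20. OASL in Omomyc replicate 3 of H1299 read 6.557, against 4.812 to 4.887 on the others. HERC5 in Omomyc replicate 4 of H1299 read 7.491, against 8.451 to 8.8. SAMD9 read 7.488 in PBS replicate 3 of A549, against 7.301 to 7.324, and 11.31 in PBS replicate 1 of H1299, against 10.44 to 10.66. IFITM1 in PBS replicate 1 of H1975 read 13.11, against 12.66 to 12.74. UBE2L6 in PBS replicate 4 of A549 read 9.764, against 10.62 to 10.78. BST2 in PBS replicate 2 of H1299 read 3.414, against 2.607 to 2.841, all below background.

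The Omomyc response differed between the 3 lines for 7 genes by the limma F test. The adjusted p was 3.64e-07 for RSAD2 and 4.9e-07 for GBP2. It was 0.00107 for SP110, 0.00401 for IFI44L, 0.0143 for IFITM1, 0.0275 for XAF1 and 0.0484 for IFIT5.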

How the results depend on the processing

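Signal over background, the 3 to 5 arrays of a group and runs known only from the values limit these results. Leaving out 1 array gave 10 to 14 calls in H1975, 0 to 0 in A549, 7 to 9 in H1299 and 5 to 8 for the difference between lines; 16 of the 21 calls were kept in every such fit, and no called change turned sign under any alternative. The median change of the genes ran from 0.0108 to 0.167 in H1975, 0.047 to 0.244 in A549 and 0.209 to 0.383 in H1299, and PBS calls from 35 to 38 (H1975 and A549), 28 to 33 (H1975 and H1299) and 22 to 25 (A549 and H1299). Single runs hold 1 or 2 arrays of a group, and a lone array (both groups in run 3 of H1975, run 1 of H1299 and run 2 of A549, PBS in run 1 of H1975) is assumed to vary like the other groups; H1975 had 5, 7 and 6 calls in runs 1, 2 and 3, H1299 had 2 and 4 in runs 1 and 2, and the difference between lines 3 and 2. With run as a block A549 had 1 call and the difference between lines 14; quantile normalization of all arrays gave 12 for the latter. The replicate block gave 15 calls in H1975, 0 in A549, 10 in H1299 and 9 for the difference between lines; run with the replicate block gave 7 in H1975 and 1 in A549, and was not run for the difference. Apart from run as a block within each line, the share of all genes called under these alternatives was not counted. These counts therefore cannot tell a change in these genes from a change over all genes. The cause of these changes with block and normalization was not tested. The replicate block applies to no PBS contrast, while run as a block was fitted to those contrasts too.

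Small PBS differences between A549 and H1299 changed sign. In run 1 alone they were 0.0601 for BST2 and 0.319 for IFIT1. For XAF1, at -0.00273 over all arrays, the difference was 0.0365 after quantile normalization, 0.124 in run 1 and 0.274 in run 3, and -0.14 to 0.212 when 1 array was left out, and it passed the test in none of these.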
